A study of Homo sapiens with 24 samples.

Results

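The comparison described here is that of a mimic of the microRNA miR-301b-3p with a negative control mimic in T-47D breast cancer cells whose estrogen receptor α (ER) was WT. T-47D is an established line derived from a ductal carcinoma of the breast. The members are the 4 libraries, of 24 in the whole series, whose column headings give a WT clone together with the miR-301b mimic or the mimic negative control, and all 26364 genes of the count table were considered. The clones D1 and D4 each gave 1 library per treatment, so that n = 2 clones in either arm, and a clone is a line grown from a single cell of the same parent. In all of these cultures the cells had been kept for 4 days in medium without hormone before plating, were transfected at a final concentration of 10 nM and were collected 24 h later. Libraries used as a comparison were the same mimic and control in 2 Y537S and 2 D538G clones, which carry an activating mutation in the ligand-binding domain of the receptor, and the miR-331-3p and miR-181c-5p mimics in the same WT clones; transfection, dose and time were shared by all of them. The design allows the question of which transcripts change when miR-301b activity is raised in cells with an unmutated receptor, and whether the mutant cells differ in that change.

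MicroRNAs guide an Argonaute protein to messenger RNAs by pairing of a short seed at their 5′ end with sites that lie mostly in the 3′ untranslated region (3′UTR), and the bound transcript is translated less and deadenylated, decapped and degraded. miR-301b is of the family of miR-130 and miR-301, whose members share 1 seed and therefore most of their sites, and its gene lies beside that of miR-130b. Members of the family are known for acting on transcripts of growth-factor and TGF-beta signaling. A mimic is a synthetic duplex that loads the mature strand into the same machinery.

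The mature sequences below (RefSeq, GRCh38.p14, 5′ to 3′) show the seed, bases 2 to 8, in capitals. The first 6 share the seed of miR-301b-3p and differ in their 3′ parts, and the last pair are the other mimics of the WT clones, whose seeds differ from it and from each other.
miR-301b-3p (chr22:21653025-21653047, plus strand): cAGUGCAAugauauugucaaagc
miR-301a-3p (chr17:59151149-59151171, minus strand): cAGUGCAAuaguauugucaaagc
miR-130b-3p (chr22:21653354-21653375, plus strand): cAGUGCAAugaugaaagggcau
miR-454-3p (chr17:59137787-59137809, minus strand): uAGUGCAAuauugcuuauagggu
miR-3666 (chr7:114653373-114653393, plus strand): cAGUGCAAguguagaugccga
miR-4295 (chr10:112634180-112634197, plus strand): cAGUGCAAuguuuuccuu
miR-331-3p (chr12:95308480-95308500, plus strand): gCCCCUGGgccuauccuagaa
miR-181c-5p (chr19:13874725-13874746, plus strand): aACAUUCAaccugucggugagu

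The site that pairs with the miR-301b-3p seed is TTGCACT. It was looked for in the 3′UTR of 1 transcript per gene, on the transcribed strand (GENCODE annotation on GRCh37, the build of the counts), and 2664 of 18747 genes with a 3′UTR held at least 1. The sites of genes whose values carry the results are shown as 23-base windows, 5′ to 3′, in the 3′UTR, with the pairing bases in capitals and, where an A follows opposite base 1 of the microRNA (an 8-base match), that A as well.
TWF1 (chr12:44188003-44188025, minus strand): taactgacaataatgTTGCACTt
ENPP5 (chr6:46128761-46128783, minus strand): atatatttagcaactTTGCACTA
PDZD11 (chrX:69506546-69506568, minus strand): catcttatcccatccTTGCACTA
HPRT1 (chrX:133634271-133634293, plus strand): tcctaaactgtttatTTGCACTA
CNOT6 (chr5:180001801-180001823, plus strand): ttctctgctcatgatTTGCACTc
DICER1 (chr14:95555325-95555347, minus strand): agctgtgggtcagtcTTGCACTc
ESR1 (chr6:152423852-152423874, plus strand): tatggcacttcaattTTGCACTg
ESR1 (chr6:152424303-152424325, plus strand): acttgtaaacctcttTTGCACTt
IL6ST (chr5:55236653-55236675, minus strand): gctgtttcaggatgtTTGCACTg
PIK3CB (chr3:138374167-138374189, minus strand): attttcattttgcacTTGCACTA
PIK3CB (chr3:138374173-138374195, minus strand): catttcattttcattTTGCACTt
PRKD3 (chr2:37478131-37478153, minus strand): aagccatgaaattaaTTGCACTc
The 2 windows of PIK3CB overlap. A match is a description of the letters in a window and was not shown here to be bound.

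CPM, the count of a gene scaled to a common library size, is used throughout. The 4 libraries held between 31379962 and 40758611 counts. All 12 markers of luminal breast epithelium were measured (KRT8 at 2248 to 2458 CPM of the library total). PTPRC, PDGFRA, PDGFRB, FAP, HBB and CDH5, which define blood cells, fibroblasts and endothelium, had 0 counts in every library. However, COL1A1, on the fibroblast list, was at 51.3 to 73.1 CPM and passed the test below (log2 fold change 0.41, adjusted p = 0.0242). The COL1A1 call was lost with the GC correction. Of the basal, blood cell and endothelium markers 5 of 8, 1 of 8 and 1 of 6 were tested and 0 passed by edgeR or DESeq2 (1 basal marker had an unadjusted p under 0.05), and of the luminal ones ERBB3 and ESR1 fell and SPDEF rose. The 2 libraries of a treatment differed by 10.4 (mimic) and 6.73 (control) times the counting noise, so they are separate samples and not copies. Levels are given in CPM after TMM scaling, as 1 value per library, and the error of a log2 fold change is its standard error (SE) from edgeR. Benjamini-Hochberg adjusted p-values are over all genes tested, and a gene is called up-regulated or down-regulated at an adjusted p-value under 0.05. With 2 libraries against 2 the smallest two-sided exact permutation p is 0.333, so single values were not tested in that way. The p-values rest on the spread between 2 clones of 1 line. The clones are not paired except with the clone as a block, and edgeR moderates the spread of each gene by that of the others. In bulk RNA a change per cell cannot be told apart from a change in which cells are present.

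The mimic changed the level of many transcripts in WT cells, and most of the strongest falls were in genes that hold the miR-301b site. Of 15113 genes tested, 1284 passed the test, 8.5% of them: 699 were up-regulated (4.63%) and 585 down-regulated (3.87%), with 4025 genes under an unadjusted p of 0.05. All 1284 moved in the same direction in both clones, against 74.5% of all genes tested. The calls were made on the same 4 libraries, so this is a description and no independent check between clones. The changes were modest, with a median absolute log2 fold change of 0.49 among called genes and 81 genes beyond 1 on the log2 scale, 42 higher and 39 lower. With the clone as a block the count rose to 4269 (28.2%), 2117 higher and 2152 lower, and these included all 1284 (14% and 14.2% of genes higher and lower). Without the control library of D1 or of D4 677 and 729 genes passed, and without the mimic library of D1 2587. The change also followed GC content. Across 14524 genes, the log2 fold change had a Pearson r of 0.46 with the GC percentage of the transcript (a description, since genes share libraries), the called genes that rose had a median of 62.3% GC and those that fell of 41.9%, against 48.7% for all genes tested. With the GC trend of each library removed, 739 genes passed (4.89%), 249 higher (1.65%) and 490 lower (3.24%), so that the higher share went from 54.4% to 33.7% of the calls, and 512 of the 1284 kept their call, while 64 changed sign. With block and GC correction together 3025 passed (20%), 1328 higher (8.79%) and 1697 lower (11.2%). The same trend was seen with the other mimics against these controls (r = 0.47 for miR-331 and 0.41 for miR-181c) and in the mutant cells (0.37 in both), but not when miR-301b was set against the other mimics (-0.04). The part of this trend in the calls was not tested.

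**Figure D1:**
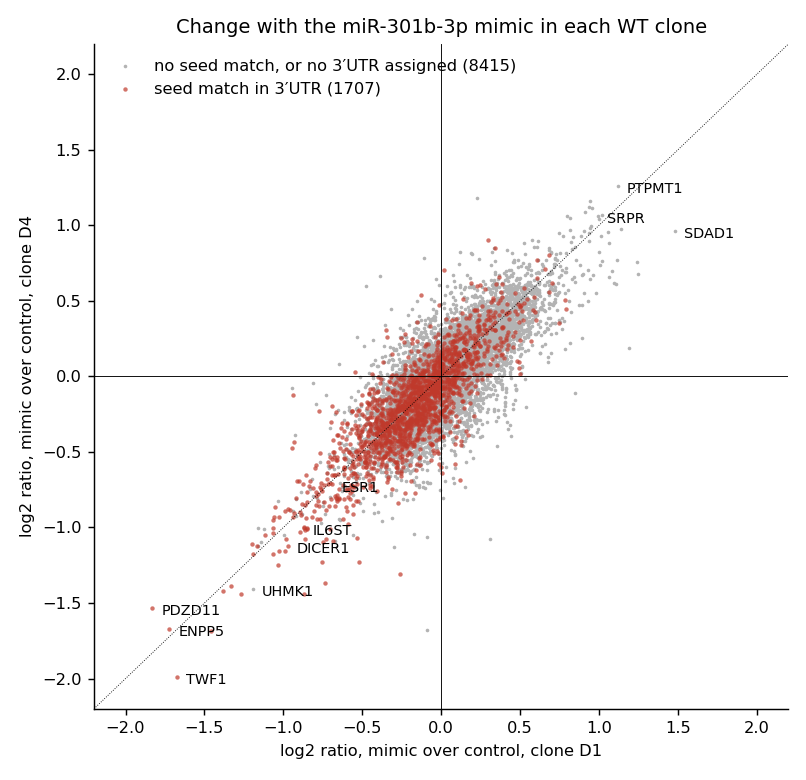
Change of each gene averaging 3 log2 CPM or more when the miR-301b-3p mimic is set against the mimic control, in clone D1 (x axis, log2 ratio) and clone D4 (y axis, log2 ratio). Each point is 1 gene, red where its 3′UTR holds the 7-base seed match. TWF1, ENPP5 and PDZD11 (log2 fold changes -1.81, -1.70 and -1.68) lie at the lower left and SDAD1 and PTPMT1 (1.24 and 1.19) at the upper right, away from 0 in both clones.

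Of the 12 largest falls among well measured genes, 10 held the 7-base site, against 16.2% of all tested genes with a 3′UTR. TWF1, which encodes twinfilin, a protein that caps and sequesters actin, was at 166 and 152 CPM in the control libraries of clones D1 and D4 and 51.9 and 38.3 CPM with the mimic (log2 fold change -1.81 ± 0.14 (SE), adjusted p = 9.74e-04). ENPP5, an ectonucleotidase family member, was at 55.4 and 49.1 CPM (control, D1 and D4) against 16.7 and 15.3 CPM (mimic, D1 and D4) (log2 fold change -1.70 ± 0.11 (SE), adjusted p = 9.00e-04). PDZD11, a small PDZ-domain protein, was at 47.8 and 45.8 CPM (control, D1 and D4) against 13.4 and 15.8 CPM (mimic, D1 and D4) (log2 fold change -1.68 ± 0.12 (SE), adjusted p = 9.00e-04). For each of these 3 genes both mimic libraries lay far below both control libraries, and the arms did not overlap. Most named genes were chosen by their values in the same 4 libraries. A lack of overlap, here and below, is therefore a description and no separate support. HPRT1, the purine salvage enzyme, was at 16.4 and 15.9 CPM (control, D1 and D4) against 5.93 and 4.89 CPM (mimic, D1 and D4) (log2 fold change -1.57 ± 0.16 (SE), adjusted p = 0.00243). HPRT1 has processed pseudogenes, and how reads that map to several places were counted is not given in the sources used here. CNOT6, a deadenylase of the CCR4-NOT complex, was at 144 and 153 CPM (control, D1 and D4) against 62.7 and 71.01 CPM (mimic, D1 and D4) (log2 fold change -1.15 ± 0.09 (SE), adjusted p = 9.74e-04). The other genes of the group were CHIC1 (-1.40), MREG (-1.37), which acts in melanosome transport, TMEM64 (-1.35), UHMK1 (-1.29), a kinase that phosphorylates stathmin and splicing factors, CPPED1 (-1.19), MTMR9 (-1.15) and DIRC2 (-1.15), all log2 fold changes, with adjusted p-values from 0.00197 to 0.00689. UHMK1, at 404 and 359 CPM (control, D1 and D4) against 177 and 135 CPM (mimic, D1 and D4), held no 7-base match to bases 2 to 8 but 1 to bases 2 to 7 followed by an A, and DIRC2 held no match of any type. All 12 stayed called with the GC correction.

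The largest rises were in genes without the site, and most of them also rose with the other mimics. None of the 12 held a 7-base match, SSPO being without an assigned 3′UTR. SRPR, the α subunit of the signal recognition particle receptor, was at 272 and 282 CPM in the control libraries of clones D1 and D4 and 542 and 589 CPM with the mimic (log2 fold change 1.03 ± 0.07 (SE), adjusted p = 9.09e-04). PTPMT1, a mitochondrial phosphatase of cardiolipin synthesis, was at 41.1 and 42.7 CPM (control, D1 and D4) against 89.3 and 102 CPM (mimic, D1 and D4) (log2 fold change 1.19 ± 0.10 (SE), adjusted p = 9.74e-04). CALU, a calcium-binding protein of the secretory pathway, was at 109 and 108 CPM (control, D1 and D4) against 226 and 209.8 CPM (mimic, D1 and D4) (log2 fold change 1.01 ± 0.08 (SE), adjusted p = 9.74e-04). In both clones the mimic libraries of these genes lay well above the controls, with no overlap. MCFD2, a cargo receptor partner for coagulation factors in the early secretory pathway, changed by 1.06, the growth factor receptor FGFR4 by 1.04, the de novo DNA methyltransferase DNMT3B by 1.03, the netrin receptor UNC5B by 1.01, IGFBPL1 by 1.05, SSPO by 1.02, the microtubule-associated MAP1A by 1.00, RIMS4 by 0.98 and SDAD1 by 1.24, all on the log2 scale and with adjusted p-values from 0.00111 to 0.0412. The calls of SSPO and UNC5B were lost with the GC correction (adjusted p = 0.107 and 0.142). With the miR-331 mimic 8 of the 12 were up-regulated against the same WT controls and with the miR-181c mimic 9 (11.3% and 9.69% of 15584 genes were up-regulated, of 17.8% and 16.9% that passed), whereas of the 12 falls 0 and 6 were down-regulated (6.47% and 7.26%). The 0 is from edgeR in the fit of 8 WT libraries, in which the smallest adjusted p among them was that of CNOT6 (0.139), and in which miR-301b itself gave 13.4% of genes called (7.97% higher and 5.47% lower); the same test by DESeq2 was not run for these pairs, and the comparisons share their control libraries.

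Genes with the miR-301b site had lower log2 fold changes than genes without it, and lower still with more or longer matches. Among 13263 tested genes with a 3′UTR, the 2143 with a match had a median log2 fold change of -0.15 and the 11120 without one of 0.03, a difference of -0.17 (-0.16 in clone D1 and -0.18 in clone D4). Of those with a match, 338 (15.8%) were down-regulated and 44 (2.05%) up-regulated, and of those without, 235 (2.11%) and 648 (5.83%). Counted from the calls, a match was held by 59.0% of 573 genes that fell and by 6.36% of 692 that rose, among those with a 3′UTR. The median fell with the number of matches, from -0.13 for the 1733 genes with 1 match to -0.22 for the 325 with 2 and -0.30 for the 85 with 3 or more, of which 30 (35.3%) were down-regulated and 1 up-regulated. By type, it was -0.24 for the 436 genes with an 8-base match, 24.5% of them down-regulated, and -0.12 for the 1707 with 7 bases only, 13.5% of them down-regulated. Genes whose best match was to bases 2 to 7 followed by an A had a median of -0.12 (474 genes, 10.8% down-regulated), those with no more than 6 bases of -0.02 (2698 genes, 3.67%) and those with no match of 0.05 (7948 genes, 1.07%).

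**Figure D2:**
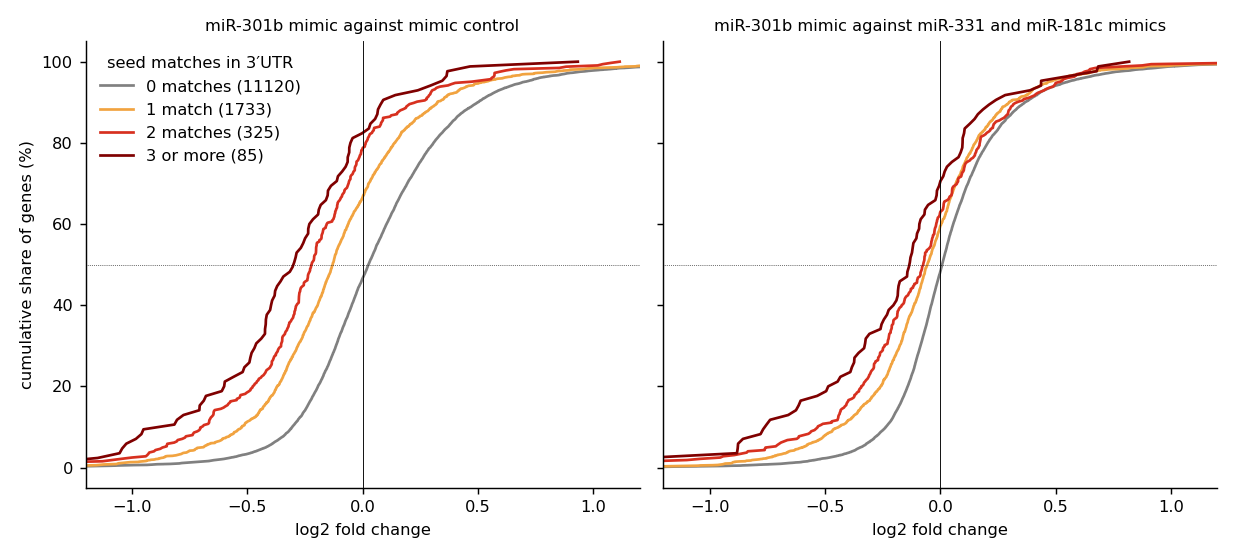
Cumulative share of genes (y axis, %) by log2 fold change (x axis) for genes with 0, 1, 2 or 3 and more miR-301b seed matches in the 3′UTR, for the mimic against the mimic control (left) and against the miR-331 and miR-181c mimics (right), both in WT cells. The curves shift to lower values with each added match, with medians from 0.03 at 0 matches to -0.30 at 3 or more on the left and from 0.01 to -0.13 on the right.

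Part of this shift was also seen with the other mimics. The 3′UTRs that held the site were richer in A and T than the rest (median GC 39.8% against 43.4%) and longer (median 3096 against 1057.5 bases). With the miR-331 and the miR-181c mimic, against the same controls, the median of genes with the miR-301b site minus that of genes without was -0.09 and -0.10. Medians for 1, 2 and 3 or more miR-301b matches were -0.06, -0.11 and -0.115 with miR-331, and -0.04, -0.11 and -0.11 with miR-181c. For 8-base and 7-base-only matches they were -0.11 and -0.07 with miR-331, and -0.08 and -0.04 with miR-181c. The order by number and type was thus not particular to the miR-301b mimic. Set directly against the mean of these 2 mimics, miR-301b gave a difference of -0.07, and -0.08 with the GC correction. In that comparison the medians were -0.06, -0.07 and -0.13 for 1, 2 and 3 or more matches. By type they were -0.13 (8-base) and -0.05 (7-base only). Against the mimic control the GC correction took the difference from -0.17 to -0.07. With genes sorted into 4 equal bins by 3′UTR GC the difference was -0.16 in the lowest bin and -0.11 in each of the others, in 4 bins by 3′UTR length it lay between -0.19 and -0.09, and in 4 bins by transcript GC between -0.09 and -0.06; these bins were added after the data were seen. Genes with the miR-331-3p site (2052 genes) had a median higher by 0.13 than genes without after the miR-301b mimic, and genes with the miR-181c-5p site (2822 genes) a difference of -0.11; with the GC correction these values were 0.02 and 0.02. With the miR-181c mimic, genes with its own site had a difference of -0.25, and with the miR-331 mimic, genes with its own site had one of 0.07. In the mutant cells, whose control libraries are separate, the difference for the miR-301b site was -0.19 (Y537S) and -0.17 (D538G).

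**Figure D3:**
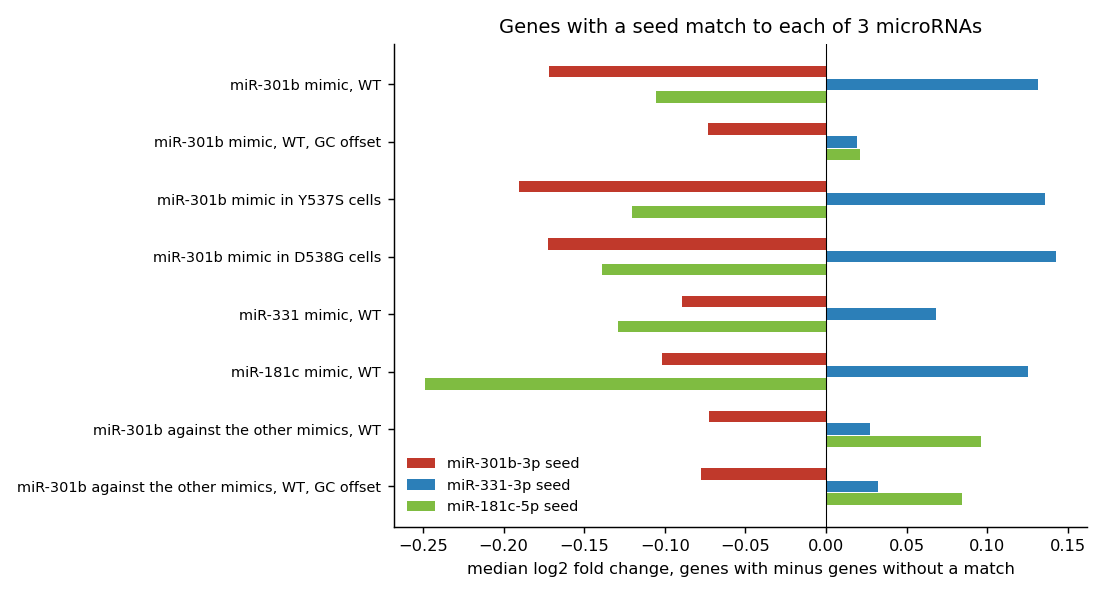
Median log2 fold change of genes with a 3′UTR seed match minus that of genes without (x axis) for the seeds of miR-301b-3p (red), miR-331-3p (blue) and miR-181c-5p (green), in each comparison (rows). The miR-301b seed is at -0.17 in WT cells, -0.07 with the GC correction and -0.07 against the other mimics. It is the only seed of the 3 that is negative in all 8 rows, which include the miR-331 and miR-181c mimics without miR-301b (-0.09 and -0.10).

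Set against the mean of the miR-331 and miR-181c mimics rather than the mimic control, the miR-301b mimic gave 1195 called genes of 15584 (7.67%). Of these, 581 were higher (3.73%) and 614 lower (3.94%), and with the clone as a block 2204 passed. Without the D1 library of miR-301b 711 genes passed, and without the D1 or D4 library of miR-331 661 and 670. All 12 of the largest falls described above were lower in this comparison too, and 5 of the 12 rises were higher, but these genes were chosen on the same 2 miR-301b libraries, so the counts are a description. The falls with the smallest p were in PDZD11 (log2 difference -1.72 ± 0.09, SE), the vesicle SNARE VAMP3 (-1.16 ± 0.06), ARL6IP1 (-0.89 ± 0.05), which shapes the endoplasmic reticulum, and the CDP-diacylglycerol synthase CDS1 (-1.27 ± 0.08). VAMP3 was at 99.00 and 98.4 CPM (control, D1 and D4) against 44.9 and 46.04 CPM (mimic, D1 and D4), and at 94.7 and 94.7 CPM with the miR-331 mimic and 109 and 110.0 CPM with the miR-181c mimic. Only the miR-301b libraries were low among these 8. VAMP3 held 6-base matches and no longer one. The rises with the smallest p were in DRAM1 (1.17 ± 0.07), a lysosomal protein induced by p53, KIF3B (0.89 ± 0.05), a subunit of kinesin-2, ATP8B1 (0.90 ± 0.06), a phospholipid flippase, and MAP1A (1.15 ± 0.07), all on the log2 scale. For KIF3B the difference came with low values after miR-181c (log2 fold change -1.73 against the control, where miR-301b gave -0.10), whereas MAP1A was higher with miR-301b (1.00) and at -0.28 and 0.02 with miR-331 and miR-181c. DRAM1 and ATP8B1 changed by 0.35 and 0.32 with miR-301b against the control (edgeR, adjusted p = 0.0365 and 0.0576). They were at -0.33 and -0.37 with miR-331 and at -1.28 and -0.77 with miR-181c.

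Several transcripts of the microRNA pathway itself fell. All 30 genes of the list for microRNA processing and silencing were tested, 15 of them with the site: 9 were down-regulated, 1 up-regulated and 20 did not pass, where 3.87% of all genes tested fell and 4.63% rose, with a median log2 fold change of -0.22 against 0.00 for all genes tested, and with the GC correction 8 were lower and 0 higher (edgeR; 1 higher without the correction), against 3.24% and 1.65% of all genes. DICER1, which cuts precursors to mature microRNAs, was at 296 and 267 CPM in the control libraries of clones D1 and D4 and 151 and 123 CPM with the mimic (log2 fold change -1.04 ± 0.11 (SE), adjusted p = 0.00256), and its 3′UTR held 3 sites. AGO4, an Argonaute, was at 25.8 and 25.9 CPM (control, D1 and D4) against 14.96 and 14.6 CPM (mimic, D1 and D4) (log2 fold change -0.80 ± 0.11 (SE), adjusted p = 0.00568). DDX6, a helicase that links silencing to decapping, was at 355 and 352 CPM (control, D1 and D4) against 258 and 256 CPM (mimic, D1 and D4) (log2 fold change -0.46 ± 0.07 (SE), adjusted p = 0.00752). In all of these the mimic libraries lay below the controls in both clones without overlap, as they did for CNOT6 above. With the miR-181c mimic DICER1, AGO4 and CNOT6 were down-regulated too (-0.64, -0.72 and -0.91), and DDX6 did not pass (0.01). With miR-331 DDX6 was down-regulated (-0.23), and DICER1, AGO4 and CNOT6 did not pass (-0.17, -0.08 and -0.23). Set against the mean of these mimics, miR-301b was lower for DICER1, AGO4, CNOT6 and DDX6 (edgeR, adjusted p = 7.64e-04, 0.0226, 0.00227 and 0.00243). A lower value than the mean is not a lower value than each mimic. AGO4 was at 14.8 and 16.2 CPM (D1 and D4) with miR-181c, close to miR-301b, and at 24.3 and 24.0 CPM with miR-331. AGO1 (-0.68), the scaffold proteins TNRC6A (-0.32) and TNRC6B (-0.40), the CCR4-NOT scaffold CNOT1 (-0.29) and the decapping enzyme DCP2 (-0.48) also fell and TARBP2, a partner of Dicer, rose (0.48); these 6 were named after their values were seen. With the GC correction TNRC6B, CNOT1 and TARBP2 did not pass (adjusted p = 0.0522, 0.124 and 0.123). AGO2 and AGO3 held 6 and 5 sites, among the most of all genes tested, yet did not pass (AGO2 -0.24, adjusted p = 0.134, and 0.0309 with the block; AGO3 -0.11, adjusted p = 0.563). The median of the list was -0.25 in Y537S and -0.18 in D538G cells, and -0.12 and -0.10 with the miR-331 and miR-181c mimics in WT cells.

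Transcripts that earlier work placed under the miR-130 and miR-301 family were among those that fell. Of 24 such genes 18 were tested, 6 were down-regulated and 0 up-regulated (edgeR; 10 had an unadjusted p under 0.05, 9 of them lower, and DESeq2 called 7), where 3.87% of all genes tested fell and 4.63% rose, and the median log2 fold change was -0.36. With the block 10 were lower and 1 higher, against 14.2% and 14% of all genes. The list was written by hand with earlier results of these data known, so its counts are a description. It holds ESR1, which the study itself reports as regulated by miR-301b. The list median was -0.14 and -0.07 with the miR-331 and miR-181c mimics in WT cells, and -0.27 and -0.30 with miR-301b in Y537S and D538G cells. ESR1, which encodes ER, was at 119 and 117 CPM in the control libraries of clones D1 and D4 and 73.6 and 71.5 CPM with the mimic (log2 fold change -0.70 ± 0.08 (SE), adjusted p = 0.00321). BMPR2, the type II BMP receptor, was at 183 and 170.0 CPM (control, D1 and D4) against 132 and 119.9 CPM (mimic, D1 and D4) (log2 fold change -0.48 ± 0.08 (SE), adjusted p = 0.0144). No control library of ESR1 or BMPR2 was as low as a mimic library. The ESR1 level was also lower with the other mimics against the same controls (-0.36 ± 0.07 with miR-331, -0.64 ± 0.07 with miR-181c), and miR-301b against these 2 differed by -0.19 ± 0.06 (adjusted p = 0.101), which did not pass. In the fit of 12 libraries the ESR1 change was -0.93 in Y537S and -0.87 in D538G cells (edgeR, adjusted p = 0.0109 and 0.0215). The WT change in that fit was -0.69 and did not pass (edgeR, adjusted p = 0.0594). The difference in ESR1 response from WT cells did not pass for either mutant. TSC1 and CYLD, named after their values were seen, fell as well (-0.38 and -0.54). The 6 members that were not tested did not pass the filter on low counts, among them PPARG, FOXF2, MEOX2, TGFBR2 and RUNX3.

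In the PI3K and mTOR pathway, which carries growth-factor signals to translation and survival, 4 of 30 tested genes fell, 2 rose and 24 did not pass, with a median of 0.11, where 3.87% of all genes tested fell and 4.63% rose. With the block 8 were lower and 11 higher, against 14.2% and 14% of all genes. PIK3CB, the p110β catalytic subunit, was at 138 and 130.1 CPM in the control libraries of clones D1 and D4 and 81.1 and 67.6 CPM with the mimic (log2 fold change -0.85 ± 0.10 (SE), adjusted p = 0.00415). PHLPP2, a phosphatase that acts on AKT, was at 79.7 and 79.7 CPM (control, D1 and D4) against 43.1 and 42.3 CPM (mimic, D1 and D4) (log2 fold change -0.90 ± 0.08 (SE), adjusted p = 0.00146). The arms did not overlap for either gene. PIK3CA, the p110α subunit, fell by 0.50 on the log2 scale (adjusted p = 0.0123), a call lost with the GC correction (adjusted p = 0.241), and RPTOR, the scaffold of mTORC1, rose by 0.54 (adjusted p = 0.0159; 0.0708 with the GC correction). PRKD3, the kinase PKD3, with 1 site, was at 34.7 and 34.8 CPM (control, D1 and D4) against 26.01 and 25.5 CPM (mimic, D1 and D4) (log2 fold change -0.43 ± 0.10 (SE), adjusted p = 0.0325), and with the GC correction its adjusted p was 0.2 and with the block 0.00215. PIK3CB was lower with the other mimics too (-0.48 with miR-331 and -0.74 with miR-181c).

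Of the TGF-beta and BMP receptors and SMADs, which pass signals from receptor kinases to nuclear factors, 22 of 23 were tested and 11 held the site: 3 fell, 3 rose and 16 did not pass, with a median of -0.01, where 3.87% of all genes tested fell and 4.63% rose. With the block 7 were lower and 5 higher, against 14.2% and 14% of all genes. The type I receptor TGFBR1 was at 84.6 and 91.3 CPM in the control libraries of clones D1 and D4 and 55.03 and 47.5 CPM with the mimic (log2 fold change -0.78 ± 0.10 (SE), adjusted p = 0.00472). ACVR1B, an activin type I receptor, with 1 site, was at 121 and 106 CPM (control, D1 and D4) against 156 and 148 CPM (mimic, D1 and D4) (log2 fold change 0.42 ± 0.09 (SE), adjusted p = 0.0282). TGFBR1 was thus below and ACVR1B above its controls in both clones. SKI, a corepressor of SMADs, rose by 0.47 (adjusted p = 0.0196; 0.321 with the GC correction). Genes of sterol synthesis and uptake showed 3 falls and 3 rises among 27 tested (median -0.06), beside the same shares of all genes, and with the GC correction 3 falls and 0 rises (edgeR; 6 calls by DESeq2 without it), where 3.24% of all genes fell and 1.65% rose. The falls included the synthesis enzymes MSMO1 (-0.77) and SC5D (-0.57), each with 1 site, and SCAP, the escort of SREBP proteins, rose (0.50).

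Of 43 tested estrogen-response genes, which ER controls in hormone-fed cells, 4 fell, 1 rose and 38 did not pass, so that 11.6% were called against 8.5% of all genes tested, with a median of -0.03 against 0.00. With the block 10 were lower and 8 higher, where 14.2% and 14% of all genes were. IL6ST, the gp130 co-receptor of interleukin 6 cytokines, was at 318 and 319.9 CPM in the control libraries of clones D1 and D4 and 174 and 159.9 CPM with the mimic (log2 fold change -0.93 ± 0.07 (SE), adjusted p = 9.74e-04). CA12, a carbonic anhydrase at the cell surface, was at 512 and 429 CPM (control, D1 and D4) against 270.1 and 244 CPM (mimic, D1 and D4) (log2 fold change -0.87 ± 0.10 (SE), adjusted p = 0.00367). Both were lower in both clones without overlap. MYBL1, a MYB-family transcription factor with 4 sites, fell by 0.71 on the log2 scale and the cadherin CELSR2 rose by 0.40, a rise lost with the GC correction (adjusted p = 0.38). In Y537S and D538G cells the median of the list was -0.28 and -0.20, with 11 and 9 members lower of the 43 and 0 higher in either (edgeR; 6.16% and 5.05% of all genes were lower and 6.58% and 3.73% higher); the difference between the genotypes was tested gene by gene only, as given below.

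Of 42 S phase genes 2 rose and 1 fell in WT cells (median -0.04), and of 53 G2/M genes 1 rose and 1 fell (median -0.05), so that 7.14% and 3.77% were called against 8.5% of all genes tested. With the block 4 and 3 rose and 7 and 10 fell (14% and 14.2% of all genes rose and fell). With the GC correction alone 1 S phase gene was higher and 1 lower, and 3 G2/M genes were higher and 0 lower (edgeR). Of all genes tested, 1.65% were higher and 3.24% lower with that correction. RPA2, a subunit of the single-strand binding protein RPA, was at 34.7 and 37.3 CPM in the control libraries of clones D1 and D4 and 22.5 and 22.7 CPM with the mimic (log2 fold change -0.67 ± 0.10 (SE), adjusted p = 0.00834), and the replicative helicase subunits MCM5 (0.47) and MCM2 (0.42) rose, MCM2 without passing under the GC correction (adjusted p = 0.0779). CENPF, a kinetochore protein, fell (-0.28) and RANGAP1, which acts in nuclear transport, rose (0.33), neither of which passed with the GC correction (adjusted p = 0.367 and 0.344). CDK1, the mitotic kinase, was at 97.3 and 89.7 CPM (control, D1 and D4) against 113 and 86.1 CPM (mimic, D1 and D4) (log2 fold change 0.09 ± 0.12 (SE), adjusted p = 0.692), and the libraries of the 2 arms overlapped; with the GC correction its adjusted p was 0.0256, at a log2 fold change of 0.31. KIF14, a mitotic kinesin, was at 25.7 and 26.04 CPM (control, D1 and D4) against 19.1 and 14.5 CPM (mimic, D1 and D4) (log2 fold change -0.62 ± 0.14 (SE), adjusted p = 0.0358), below its controls in both clones, with an adjusted p of 0.0574 with the GC correction. The medians of the S phase list were -0.14 and -0.27 in Y537S and D538G cells, and those of the G2/M list -0.22 and -0.28.

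Of 30 genes of integrins and focal adhesions 4 rose and 0 fell, where 4.63% of all genes tested rose and 3.87% fell (edgeR; 10 had an unadjusted p under 0.05, 1 of them lower, and DESeq2 called 6), with a median of 0.09: the adaptor BCAR1 (0.54), the laminin receptor subunit ITGA3 (0.43), the kinase SRC (0.46) and filamin A, FLNA (0.33). None of the 4 passed with the GC correction (adjusted p from 0.159 to 0.913), with which 1 integrin subunit, ITGA2, was higher and 1, ITGB4, lower (adjusted p = 0.00266 and 0.00274), both named after their values were seen. Of 22 p53 target genes 2 fell and 1 rose (median 0.06), or 13.6% called against 8.5% of all genes. RRM2B, a subunit of ribonucleotide reductase, changed by -0.66, ZMAT3, an RNA-binding protein with 2 sites, by -0.77, and FDXR, of mitochondrial electron transfer, by 0.47, the last of which did not pass with the GC correction (adjusted p = 0.572). Of 25 ATF4 targets 1 fell, the amino acid transporter SLC7A5 (-0.29, adjusted p = 0.0398), and the median was -0.01 (4% called). Of 45 interferon-stimulated genes 0 passed (edgeR; 11 had an unadjusted p under 0.05, 10 of them lower, and DESeq2 called 0), and with the block 10 were lower, where 14.2% of all genes were. The median of that list was 0.02 in clone D1 and -0.30 in clone D4, so the medians of the clones lay apart, and the members with the smallest p, PARP14, DDX60, IFIH1 and DTX3L, had adjusted p-values from 0.077 to 0.106. TUSC2 (-0.19, adjusted p = 0.237) and PLAGL2 (-0.06, adjusted p = 0.669), which hold no miR-301b site, did not pass.

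**Figure D4:**
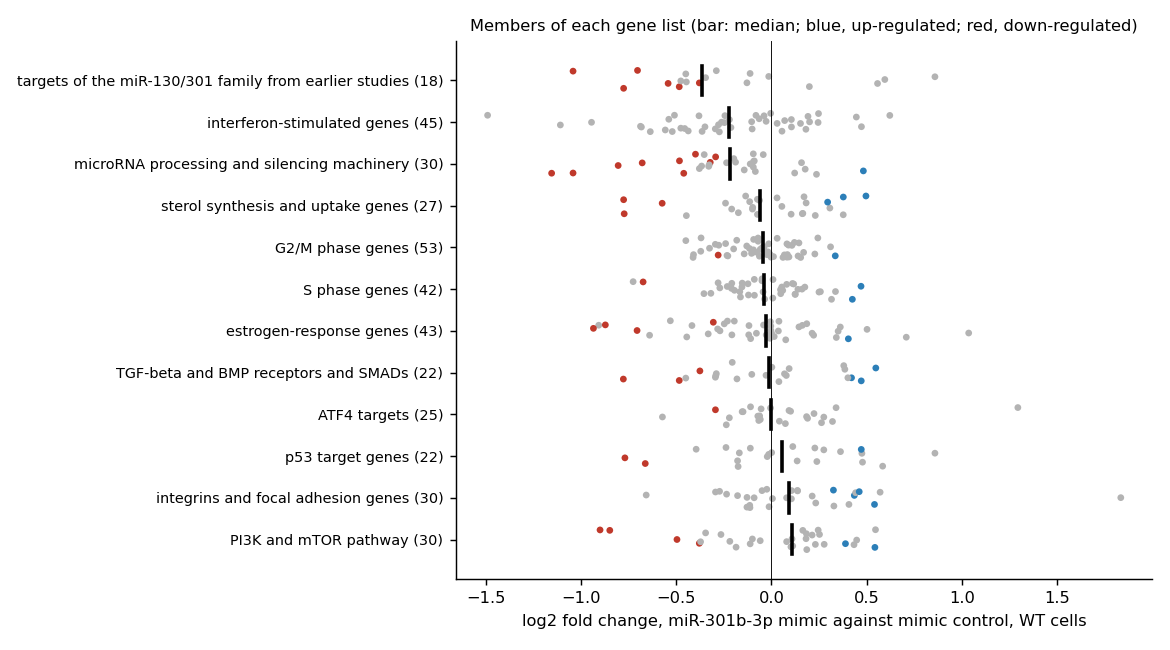
Log2 fold change with the miR-301b-3p mimic in WT cells (x axis) of each tested member of the gene lists (rows, with the number tested). Points are genes, red or blue where the gene was down- or up-regulated and grey where it did not pass, and the black bar is the median, lowest for earlier targets of the family at -0.36 and for microRNA machinery and interferon-stimulated genes at -0.22.

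Genes with the most sites did not all respond. RPS6KA5, the kinase MSK1, held 11 sites in a 3′UTR of 24213 bases and was at 45.3 and 39.00 CPM in the control libraries of clones D1 and D4 and 24.2 and 24.1 CPM with the mimic (log2 fold change -0.80 ± 0.11 (SE), adjusted p = 0.00568), with no overlap. AAK1, a kinase of clathrin adaptors, held 5 and changed by -0.40 (adjusted p = 0.0346; 0.0708 with the GC correction). ZBTB20, a transcriptional repressor with 4 sites, all of the 8-base type, was at 7.65 and 6.25 CPM (control, D1 and D4) against 6.06 and 4.16 CPM (mimic, D1 and D4) (log2 fold change -0.44 ± 0.23 (SE), adjusted p = 0.264), and did not pass.

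Most genes called in WT cells moved in the same direction in the mutant cells. Of the 585 genes that fell in WT cells, 582 were also lower in Y537S and 582 in D538G cells, and 444 (75.9%) and 353 (60.3%) passed the test there. Of the 699 that rose, 695 were higher in either mutant, and 65.4% and 47.4% passed. Among all genes tested, 77.2% (Y537S) and 76.7% (D538G) had the same sign as in WT cells, and in those cells 2034 (12.7%) and 1403 (8.79%) of 15968 genes passed, against 1056 (6.61%, with 3.4% higher and 3.21% lower) for WT cells in the same fit. Of the 12 largest falls all 12 fell in both mutants, and of the 12 largest rises 10 rose in Y537S and 11 in D538G cells. The difference in response was tested itself, over 15968 genes and 12 libraries. For Y537S minus WT and for D538G minus WT 1 gene passed (0.00626%), and it was SDAD1 in both, with 400 and 429 genes under an unadjusted p of 0.05; DESeq2 called 2 and 1. Both differences use the same WT libraries. With the clone as a block 74 and 42 genes passed. For D538G minus WT 0 genes passed by edgeR without either D538G mimic library or either WT control library, the adjusted p of SDAD1 then lying between 0.0687 and 0.0940. SDAD1, a nucleolar protein of ribosome assembly, was at 56.2 and 59.2 CPM in the control libraries of clones D1 and D4 and 157 and 115 CPM with the mimic in WT cells, whereas in Y537S cells it was at 279 and 267 CPM in the controls and 112 and 89.7 CPM with the mimic, and in D538G cells at 239 and 178 against 106 and 104 CPM. It thus rose in WT cells and fell in both mutants, and the mimic libraries of the 3 genotypes lay closer to each other than the controls did. Genes with the next smallest p did not pass. MAN1A1, a mannosidase of N-glycan trimming, had a log2 change of 0.32 in WT cells and of -0.55 and -0.45 in Y537S and D538G cells (adjusted p of the differences 0.955 and 1).

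**Figure D5:**
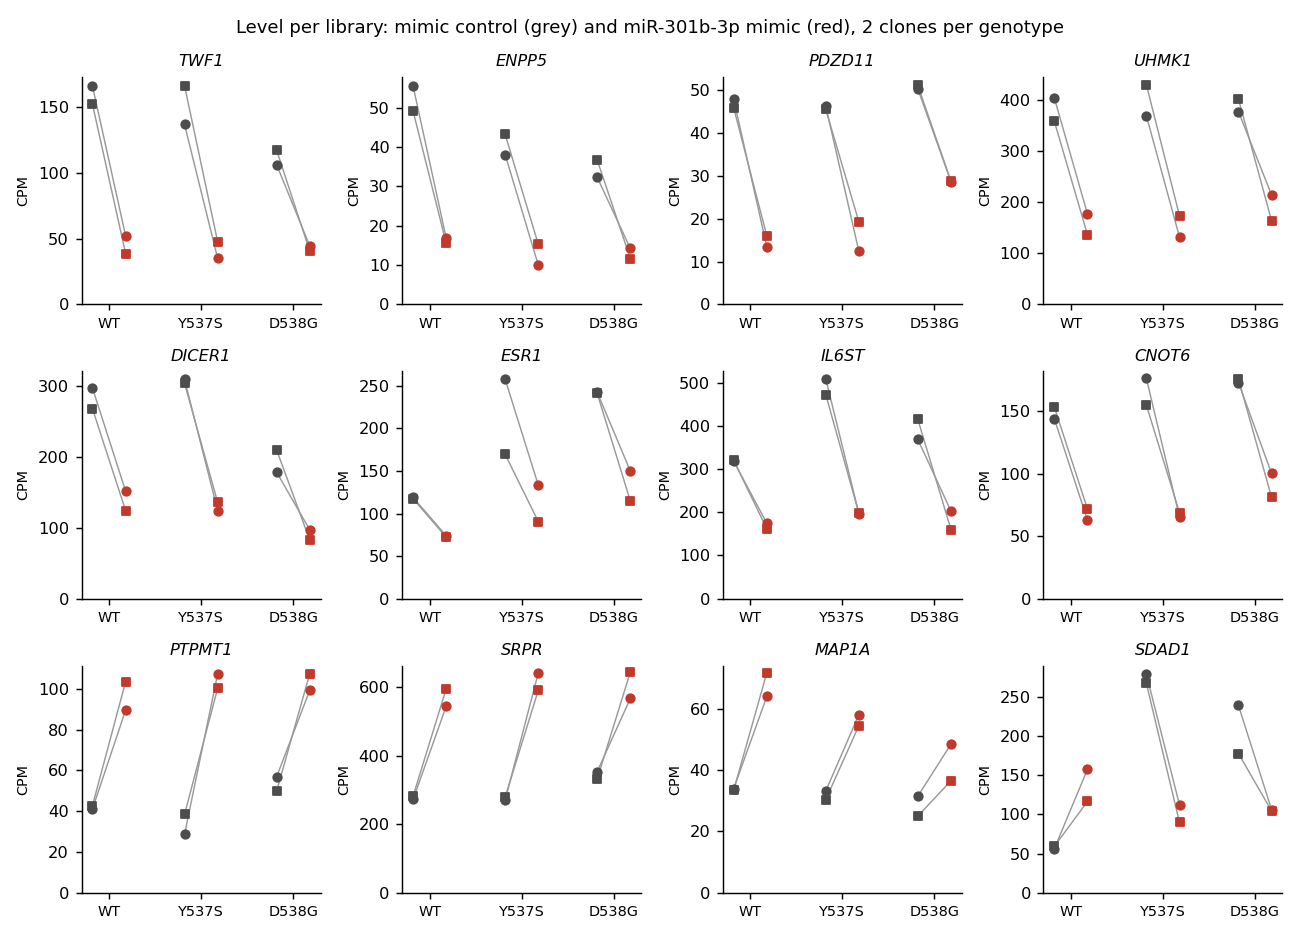
Level (y axis, CPM after TMM scaling of 12 libraries) of 12 named genes in WT, Y537S and D538G cells (x axis), with 1 point per library, grey for the mimic control and red for the miR-301b-3p mimic, and a line joining the libraries of a clone. The lines fall for the first 8 genes and rise for PTPMT1, SRPR and MAP1A in every clone, while SDAD1 rises in the WT clones only and falls in the other 4.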

How the data were processed

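RNA-seq of poly-A RNA was made from T-47D clones. Per the labels and the study's methods, the authors used HISAT2 for alignment (hg19) and featureCounts, of Subread, for counting over UCSC Known Genes, and they deposited unnormalized counts, 1 column per library. Tool versions, the strand setting and the handling of reads with several positions are not given in the sources used here. Each WT column was assigned to its group by the treatment in its heading; clone names in the headings are not those of the labels.

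Counts were tested with edgeR 4.0.16 (R 4.3.3): TMM, filterByExpr at its defaults, quasi-likelihood F test, two-sided, Benjamini-Hochberg over all genes tested, called under 0.05. The comparison of treatments used the 4 libraries (2 residual degrees of freedom) without a clone term, after the study's methods; other mimics were compared in a fit of 8 WT libraries and responses between genotypes in a fit of 12. The SE is the log2 fold change over the square root of F, and a log2 CPM used a prior count of 2. The headings name the clone of each library, which pairs the arms (correlation across genes of the D1 minus D4 difference between the arms 0.25). Alternatives were DESeq2 1.42.0, RLE factors, no filter, the clone as a block, a GC offset (lowess, span 0.3), and each library left out. Scripts were tested on simulated counts.

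Genes were matched to GENCODE v44 on GRCh37: 22494 by symbol, 1363 by an older symbol, 2507 not. Cell cycle lists are those of Seurat 5.3.0; the other lists were written by hand. Members, lists and tests were chosen with earlier results of these data known. Genes were named by rule: the 12 largest falls and rises that passed, moved 1 way in both clones and averaged 3 log2 CPM or more, 7 genes fixed by name, up to 4 genes of smallest p per list, the 5 with most sites, and the 4 of smallest p in each direction of the other comparisons. Lists are described by counts and medians, without a set test. A few genes of these lists are not reported here by name.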

Additional observations from a re-analysis of the deposited data

Results flagged for a closer look

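SDAD1 was the one gene whose response to the miR-301b mimic differed between genotypes by the test of the difference. The Y537S minus WT response was -2.68 and the D538G minus WT response -2.23 on the log2 scale (edgeR, adjusted p = 9.08e-04 and 0.00644). In CPM of the library total, the WT control libraries were at 55.8 and 58.3, the lowest of all 24 libraries, whose other values lay between 91.2 and 359, and the WT libraries of the other mimics were at 183.2 to 319. With the clone as a replicate block the adjusted p-values were 4.90e-15 and 8.78e-13. The D538G call was lost without either D538G mimic library (adjusted p = 0.0846 without A5 and 0.0924 without C2) and without either WT control library (0.0940 without D1 and 0.0687 without D4). Both differences rest on the same WT libraries, whose part in them was not tested.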

How the results depend on the processing

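The number of genes called for the mimic against its control (1284) was within 1.5 times with DESeq2 and RLE factors. It was 2639 without the filter on low counts, 4269 with the clone as a replicate block, 739 with the GC offset, 3025 with both, 2095 with all 8 WT libraries in the fit and 254 at an adjusted p under 0.01, and 677 to 2587 with a library left out; there the lone library of an arm is assumed to vary like the other arm. Against the other mimics (1195) it was 1839 without the filter, 2204 with the block, 3107 with block and GC offset, and 661 to 1024 with a library left out. For Y537S minus WT (1) it was 2 by DESeq2, 17 without the filter, 74 with the block and 151 with block and GC offset, and for D538G minus WT (1) 12, 42 and 68 without the filter, with the block and with both, and 0 to 1 with a library left out, 0 being without a D538G mimic library or a WT control library. The cause was not tested.

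The difference of medians by the miR-301b site (-0.17) was -0.07333 with the GC offset, -0.072589 with block and GC offset, -0.26 for 8-base matches only and -0.21 to -0.15 with a library left out, negative under every alternative run. Of 1045 alternative values for 95 named genes, 8 reversed in sign, none of a called gene: CDK1 (-0.12 to 0.27 with a mimic library left out), AGO3 (0.0813 with the GC offset, 0.0778 with the block too) and EHF (0.153 with the GC offset and with the block too, 0.0110 with all 8 WT libraries, 0.0120 without the D1 control, -0.0364 to 0.0213 with a mimic library left out). The GC offset ended 18 calls of named genes and made 4; the block ended none and made 18. Depth limits genes of few counts, which the filter removed.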
